A study of Mus musculus with 17 samples.

Results

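The cytosolic ribosomal protein genes encode the proteins that, with ribosomal RNA, build the large and the small subunit of the ribosome. They were taken as the autosomal protein-coding genes of the GENCODE M21 annotation (mm10) whose symbol is Rpl or Rps with a number, or Rplp0, Rplp1, Rplp2 or Rpsa, without pseudogenes, S6 kinases and copies whose symbol ends in l. The symbols gave 72 of 20807 autosomal protein-coding genes, 43 for the large subunit and 29 for the small subunit. Each was scored for a peak of the histone variant H3.3 within 1 kb of any annotated transcript start.

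H3.3 was mapped by CUT&RUN, in which an antibody brings micrococcal nuclease to chromatin and the freed fragments are sequenced. Cells were pachytene spermatocytes, the meiotic cells in which homologous chromosomes are fully paired, enriched by Sta-Put sedimentation from pooled testes of adult males on a CD1 background. Arid1a cKO males were Arid1a fl/fl with Stra8-Cre Tg/0, a transgene that acts in spermatogonia, and some of their cells escape the deletion. Arid1a WT males were Arid1a fl/fl or fl/+ controls of the same crosses. The series holds 17 libraries, of which 5 were of H3.3 (2 Arid1a WT and 3 Arid1a cKO) and 12 of the chromatin remodelling subunit ARID1A, not analysed here.

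The H3.3 peaks came as a single combined list for each genotype, so the genotypes could be neither tested nor given an error, and the depth of the libraries is unknown. The Arid1a cKO list had 12183 rows, which merged to 6552 regions, and the Arid1a WT list had 228 rows. No identity check on the cells from expression markers was possible, since the lists hold peaks and no expression values.

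Ribosomal protein genes are among the most strongly transcribed genes of growing cells, and their promoters are compact, rich in CpG and mostly without a TATA box. Their mRNAs start with a C followed by a run of pyrimidines, the 5′ terminal oligopyrimidine motif, through which mTOR signalling and LARP1 set their translation. H3.3 is the H3 variant that is placed in chromatin outside of replication, and it is known at active promoters.

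The promoters of the genes with the highest H3.3 enrichment, and of the first genes by symbol that had no H3.3 region, show what such sequences look like. Each holds 250 bases before and 50 bases from the start, 5′ to 3′, from RefSeq (GRCm38.p6), whose table held 52 of the 72 genes. Capitals mark the C nearest to the start, within 10 bases of it, that has at least 4 pyrimidines after it, and those pyrimidines. Pyrimidines just before that C stay in lower case, so the marked stretch can be the end of a longer run, as in Rpl19, Rps21 and Rpl14. In Rpl19 it ends before the start. Rpl19 (chr11:98026674-98026973), Rps21 (chr2:180257129-180257428) and Rps23 (chr13:90922872-90923171) had a region, while Rpl14 (chr9:120571267-120571566) and Rpl18 (chr7:45717821-45718120) had none, and all 5 lie on the plus strand. The RefSeq start is that of the principal transcript used for the counts of motifs and GC content in Rpl19 and Rpl18, and lies 2 bp from it in Rps21, 73 bp in Rpl14 and 164 bp in Rps23.
Rpl19: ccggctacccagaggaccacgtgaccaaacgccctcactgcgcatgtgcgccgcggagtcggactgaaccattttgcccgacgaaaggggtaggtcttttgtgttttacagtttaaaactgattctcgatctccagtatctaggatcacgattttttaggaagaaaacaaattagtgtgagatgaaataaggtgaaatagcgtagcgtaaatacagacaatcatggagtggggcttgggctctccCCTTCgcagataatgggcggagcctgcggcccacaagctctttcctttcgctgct
Rps21: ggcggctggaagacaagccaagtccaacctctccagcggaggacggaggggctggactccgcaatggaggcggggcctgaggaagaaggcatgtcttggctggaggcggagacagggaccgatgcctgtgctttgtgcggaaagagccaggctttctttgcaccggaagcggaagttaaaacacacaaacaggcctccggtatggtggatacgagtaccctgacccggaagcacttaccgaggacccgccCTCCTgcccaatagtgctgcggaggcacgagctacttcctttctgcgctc
Rps23: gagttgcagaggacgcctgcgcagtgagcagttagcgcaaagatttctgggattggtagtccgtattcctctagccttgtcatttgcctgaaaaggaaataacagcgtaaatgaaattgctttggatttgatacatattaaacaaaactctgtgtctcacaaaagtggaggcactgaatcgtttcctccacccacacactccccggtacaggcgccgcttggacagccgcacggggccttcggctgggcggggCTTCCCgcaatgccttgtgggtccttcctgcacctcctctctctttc
Rpl14: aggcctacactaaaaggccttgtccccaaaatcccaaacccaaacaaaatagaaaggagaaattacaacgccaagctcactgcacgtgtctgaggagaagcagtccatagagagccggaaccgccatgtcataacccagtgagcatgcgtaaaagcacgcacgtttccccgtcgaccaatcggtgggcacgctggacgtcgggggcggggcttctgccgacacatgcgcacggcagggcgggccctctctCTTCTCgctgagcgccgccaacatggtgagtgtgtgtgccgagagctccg
Rpl18: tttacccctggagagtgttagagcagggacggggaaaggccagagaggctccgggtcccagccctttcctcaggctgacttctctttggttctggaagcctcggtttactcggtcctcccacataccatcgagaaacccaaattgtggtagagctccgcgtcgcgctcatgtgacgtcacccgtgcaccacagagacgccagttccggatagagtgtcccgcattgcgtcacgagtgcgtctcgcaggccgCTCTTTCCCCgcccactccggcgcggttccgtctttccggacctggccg
Of these 300 bases, 65 of Rpl19, 142 of Rps21 and 156 of Rps23 lay within the H3.3 region, in each case the downstream end of the window.

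In Arid1a cKO, 47 of the 72 ribosomal protein genes had an H3.3 region at a start (65.3%, 95% Wilson interval 53.8 to 75.2). Of all autosomal protein-coding genes, 29.5% had one. In Arid1a WT, 0 of the 72 had one, which allows a share of up to 4.17%. The background was 0.0% as well, so the WT count says nothing particular to these genes. A start without a row in the list is not a start without H3.3. In Arid1a WT the paper reports H3.3 above IgG at starts of autosomal genes that ARID1A regulates. That signal appeared higher in Arid1a cKO. The nearest WT row lay 3.49 Mb or more from any of the 12 members on a chromosome with a WT row, and 60 members lay on chromosomes without any. The intervals cover counting error only and treat genes as independent.

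Genes of like base composition were counted as well. Of the 2487 genes whose GC content (50.8 to 62.0%) and CpG ratio (observed over expected, 0.724 to 0.927) in the 500 bp either side of the principal start lay within the 10th to 90th percentile of the members, 61.2% had a region. The share of the 43 members in that range was 69.8% (30 genes). The share of the ribosomal protein genes was far above that of all genes, and the share of the 43 members was nearer to that of genes of like composition. By GC content alone, the members stood above all genes in each of the classes given below. In the lowest class this rests on 1 of 9 members, and CpG content was not matched in these classes. None of these differences was tested.

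By subunit, 29 of 43 large subunit genes (67.4%, 52.5 to 79.5) and 18 of 29 small subunit genes (62.1%, 44.0 to 77.3) had a region, with intervals that overlap. The genes for the mitochondrial ribosome, which is built from a separate set of proteins, had a region in 42 of 78 cases (53.8%, 42.9 to 64.5).

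**Figure D1:**
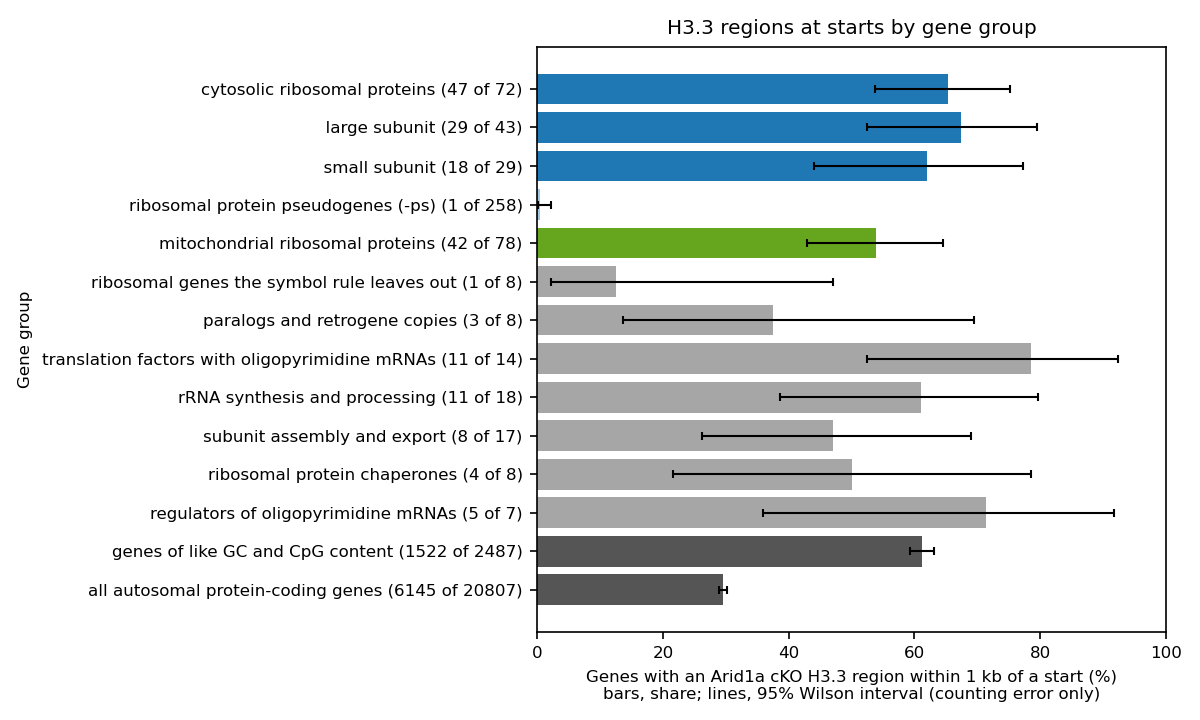
Share of genes with an Arid1a cKO H3.3 region within 1 kb of a start (x axis, percent) for each gene group (y axis, counts in brackets), with bars for the share and lines for the 95% Wilson interval. Cytosolic ribosomal protein genes reach 65.3%, genes of like GC and CpG content 61.2%, all autosomal protein-coding genes 29.5% and ribosomal protein pseudogenes 0.388%. Only 43 of the 72 members lie within that GC and CpG range, and their share, not drawn, is 69.8%.

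Fold enrichment is the ratio of H3.3 to IgG background given by the authors' peak caller, averaged over the peak. Over the 47 members it ran from 2.87 to 10.3 with a median of 4.55, against a median of 4.12 and a maximum of 14.9 over the 6145 genes with a region. The fold was above the all-gene median in 27 members, above the 75th percentile in 17 (36.2%) and above the 90th percentile in 10 (21.3%). The median was 4.75 for the large and 4.00 for the small subunit.

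The highest fold was that of Rpl19, 10.3, a large subunit protein with a long helix that reaches the small subunit. Its region (chr11:98026909-98027315) was 407 bp wide and ranked above 99.9% of the genes with a region. Rps21, which works late in small subunit maturation, had a fold of 8.02 (chr2:180257287-180257749). Rps23, which lies at the decoding centre, had 7.95 (chr13:90923016-90923390).

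Rpl36 of the large subunit had a fold of 7.78 (chr17:56613279-56613797). Rplp2, an acidic protein of the stalk that recruits elongation factors, had 7.28, and Rpl37, a zinc finger protein of the large subunit, had 6.78. Rpl11, which with Rpl5 and 5S rRNA forms the particle that binds Mdm2, had 6.62, and Rps13 of the small subunit had 6.30. These 8 genes lie on 7 chromosomes, and 5 of them belong to the large subunit.

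At the other end, Rpl6 of the large subunit had a fold of 2.87. Rps2, which lines the mRNA entry channel, and Rps14, of the platform of the small subunit, had 2.91 each. Rpl15 had 3.03 and Rps19, the gene most often mutated in Diamond-Blackfan anemia, had 3.12. The −log10 q of the members ran from 1.89 to 16.0, with 13 members below 3. At a −log10 q of at least 3, 34 members had a region (all genes 20.8%), and at 5 or more 22 had one (all genes 9.56%).

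**Figure D2:**
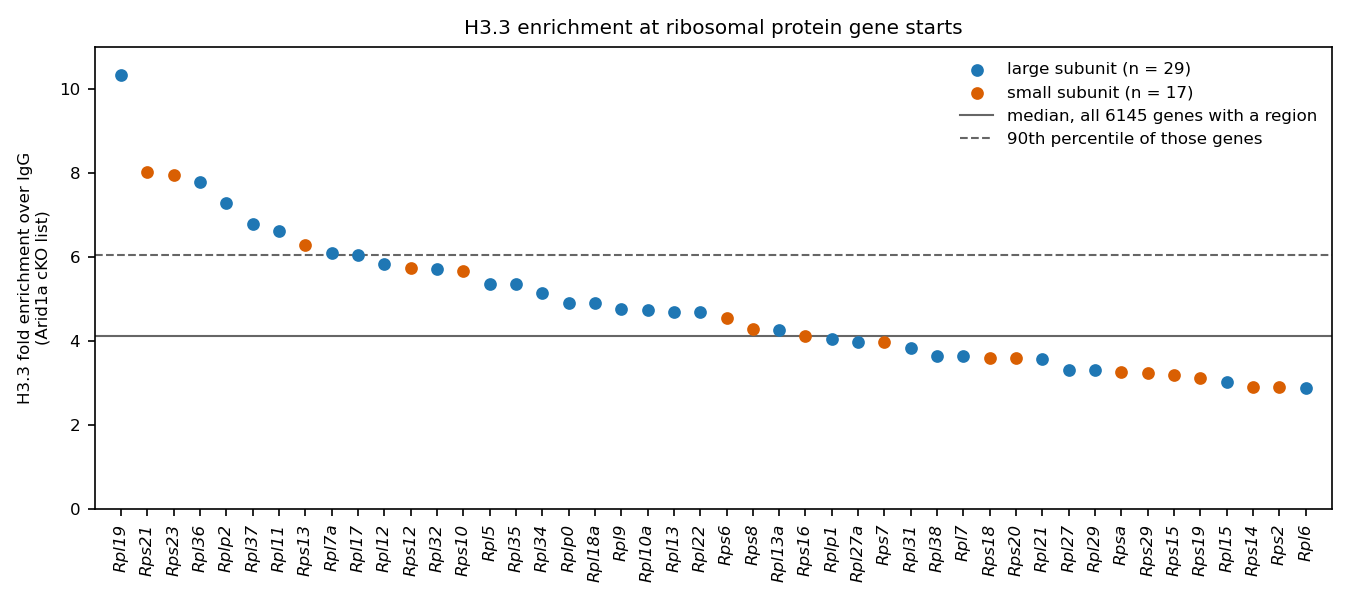
H3.3 fold enrichment over IgG in the Arid1a cKO list (y axis) for 46 of the 47 ribosomal protein genes with a region (x axis), coloured by subunit, with the median (solid line) and 90th percentile (dashed line) of all 6145 genes with a region. Values fall from 10.3 at Rpl19 to 2.87 at Rpl6, and 27 points lie above the median.

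Grouped by place in the ribosome, a grouping made after the values were seen, all 4 genes of the stalk and its base (Rplp0, Rplp1, Rplp2 and Rpl12) had a region, with folds from 4.04 to 7.28. Rpl5 and Rpl11 of the 5S particle had folds of 5.36 and 6.62. Around the peptide exit tunnel 4 of 7 had one (Rpl17, Rpl19, Rpl31 and Rpl35), while Rpl4, Rpl23a and Rpl26 had none. At the mRNA entry Rps2 had one and Rps3 had none. These small counts stand beside the 65.3% of all 72 members and the 29.5% of all autosomal protein-coding genes with a region. No difference between these places was tested.

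No region was found for 25 members, 14 of the large and 11 of the small subunit. In the large subunit these were Rpl3 and Rpl4, core proteins of the subunit, Rpl8, Rpl14, Rpl18, Rpl23, Rpl23a, Rpl24, Rpl26, Rpl28, Rpl30, Rpl35a, Rpl37a and the very short Rpl41. In the small subunit these included Rps3 at the mRNA entry, Rps26 and Rps28 at the mRNA exit, Rps27a, which is made fused to ubiquitin, and Rps9, Rps15a, Rps24, Rps25 and Rps27. Their nearest cKO row lay 1339 bp (Rpl41) to 499258 bp (Rpl37a) away, with a median of 20950 bp.

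Few members lay near the 1 kb limit. The nearest row inside it was that of Rpl7 at 410 bp, followed by Rps14 at 94 bp and Rps29 at 86 bp, and outside it came Rpl41 at 1339 bp, Rpl23a at 2743 bp and Rpl28 at 3441 bp.

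The share of members with a region was higher at higher GC content around the start. Below 52% GC, 1 of 9 had a region (all genes 5.78%), and from 52 to below 56% 5 of 11 (all genes 22.0%). From 56 to below 60% 24 of 34 had one (all genes 40.2%), and at 60% or more 17 of 18 (all genes 54.8%). The exception in the lowest class was Rpl35 at 50.9%, and the exception in the highest was Rpl18 at 60.5%. The median was 59.0% with a region, 55.7% without, and 61.4% over all genes with a region.

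**Figure D3:**
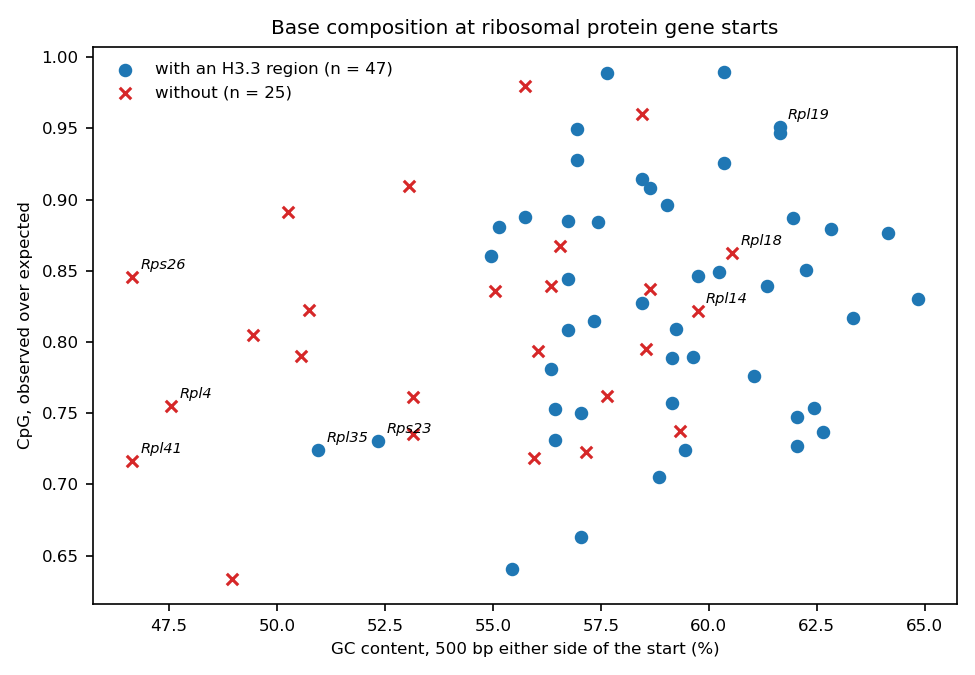
GC content (x axis, percent) against CpG observed over expected (y axis) in the 500 bp either side of the principal start of the 72 ribosomal protein genes, as circles with an H3.3 region (n = 47) and crosses without (n = 25). Crosses take up nearly all of the left side, where 1 of 9 genes below 52% GC has a region, while at 60% or more 17 of 18 have one.

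The regions were narrow, 226 to 950 bp with a median of 403 bp, against a median of 450 bp over all genes with a region. Among the widest were those of Rpl15 (950 bp), Rpl37 (780 bp), Rplp2 (669 bp) and Rpl7a (665 bp). Each of the 47 regions was made of 2 rows, as were 85.8% of all cKO regions.

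Position was read from 2 kinds of start. From the nearest of all annotated starts of a gene, the median centre lay 14.5 bp downstream, 27 of 47 regions were centred downstream (57.4%; all genes 61.6%) and 40 covered a start (85.1%; all genes 76.7%). The farthest were Rpl7, 728 bp upstream, Rpl17, 274 bp downstream, Rpl22 and Rpl6, each 252.5 bp downstream, and Rps14, 241.5 bp downstream. This distance takes whichever annotated start of the gene is nearest.

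From the principal start alone (the APPRIS principal transcript), the median centre lay 198 bp downstream, and 43 of 47 regions were centred downstream (91.5%; all genes 68.9%). The region covered the principal start in 23 of 47 genes (48.9%; all genes 58.3%). Rpl10a, the farthest downstream, was centred at 681 bp, and Rpl7, Rps18, Rpl7a and Rpl37 were centred upstream.

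**Figure D4:**
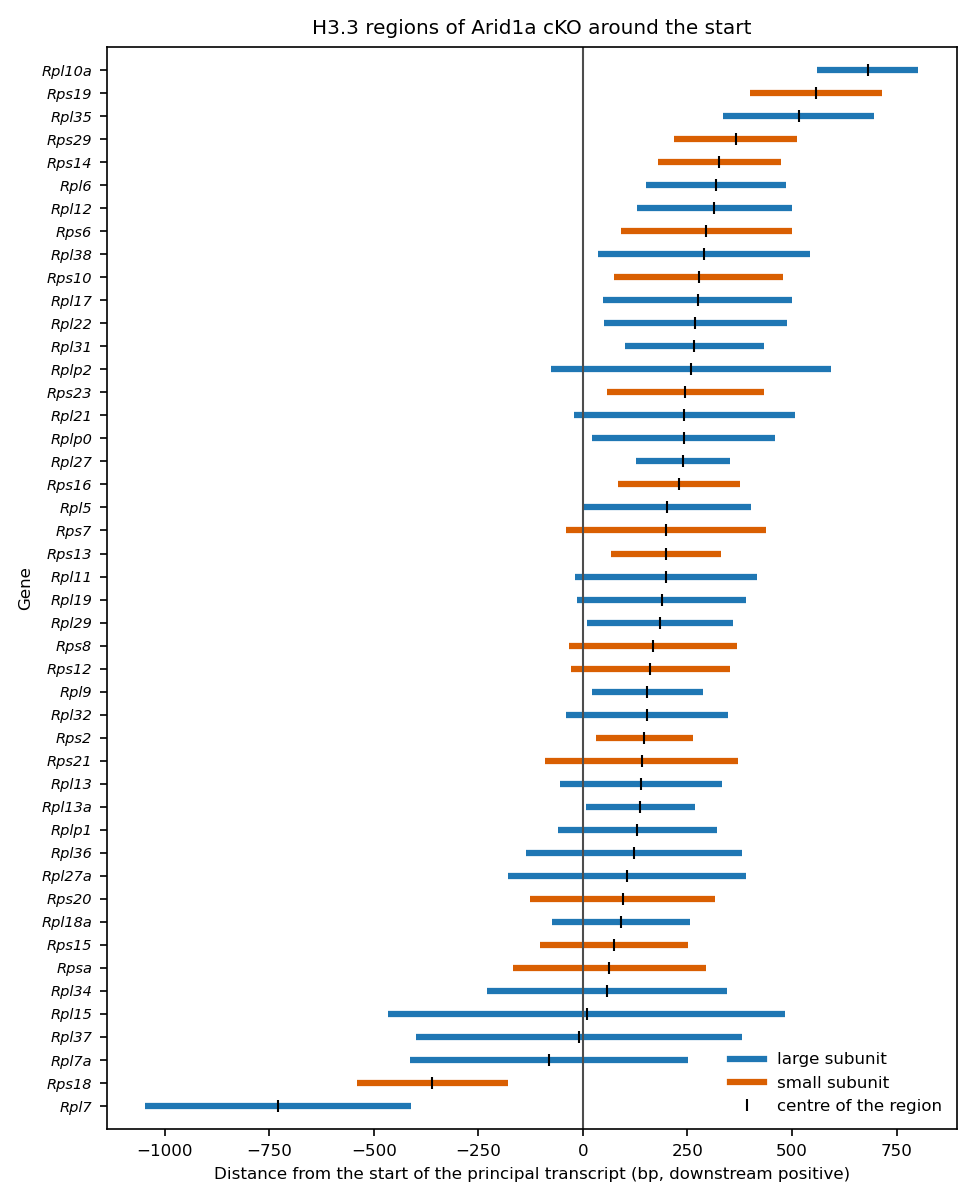
Arid1a cKO H3.3 regions (horizontal bars, coloured by subunit, with a tick at the centre) of 46 of the 47 ribosomal protein genes against distance from the principal start in bp, downstream positive. Most bars lie to the right of 0, and 4 centres lie upstream, those of Rpl37, Rpl7a, Rps18 and Rpl7.

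Of the 47 regions, 8 also lay within 1 kb of a start of another protein-coding gene (17.0%; all genes 26.8%), 7 of them at a gene on the opposite strand. Rpl7a shared its region with Med22 (fold 6.10), Rpl12 with Lrsam1 (5.84), Rpl35 with Arpc5l (5.35) and Rpl9 with Lias (4.75). Rpl7 shared it with Rdh10 (3.65), Rps18 with Vps52 (3.59) and Rpl15 with Nkiras1 (3.03). The region of Rps10 (5.66) was shared with the readthrough transcript RPS10-NUDT3. The region given to Rpl7 was centred 384 bp from the Rdh10 start and 728 bp from that of Rpl7.

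A start at a C with at least 4 pyrimidines after it was annotated for 33 of 72 members (45.8%), against 8.69% of all genes. It was found in 22 of 47 members with a region (46.8%) and in 11 of 25 without (44.0%). The longest runs with such a start were in Rps24 (17 bases, no region) and Rpl27a (15 bases, fold 3.99).

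In the 300 bases around the principal start, 4 motifs were searched on both strands. The motifs can overlap by a few bases, and each was counted on its own. CCGGAAG, the core bound by ETS factors, was in 42.6% of members with a region, 24.0% of members without, 11.5% of all genes and 21.3% of all genes with a region. GGGCGG, the GC box of Sp1, was in 55.3%, 40.0%, 46.1% and 70.2% of the same 4 groups. TATAAA, the TATA box, was in 10.6%, 8.00%, 12.8% and 6.15% of them. Members with a region thus held the GC box less often, and the TATA box and CCGGAAG more often, than all genes with a region. For the TATA box this rests on 5 of 47 members. Median GC content was 59.0% for these members and 61.4% for all genes with a region. The differences were not tested.

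AAGATGGC, which holds the core bound by YY1, was in 0 of 47 members with a region (which allows up to 6.38%) and in 5 of 25 without, against 3.16% of all genes and 5.55% of all genes with a region. This motif was singled out after its values were seen. The 5 sites are given with 10 bases on either side and AAGATGGC in capitals, at chr11:78183529-78183556 (minus strand) for Rpl23a, chr15:34443189-34443216 (plus strand) for Rpl30, chr16:33056480-33056507 (minus strand) for Rpl35a, chr7:118116135-118116162 (plus strand) for Rps15a and chr3:90213705-90213732 (minus strand) for Rps27 (mm10).
Rpl23a: cttttcagccAAGATGGCgccgaaagcg
Rpl30: accagccgccAAGATGGCcggggagcga
Rpl35a: cacaggcgccAAGATGGCggaaagagga
Rps15a: ccggcgagggAAGATGGCagaaagagag
Rps27: agaccttccgAAGATGGCgaagcaacac
The site of Rpl23a begins 38 bases downstream and that of Rps27 71 bases upstream of the start, and the other 3 are on the strand opposite to the gene. A match describes letters only.

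Members that host small nucleolar RNAs in their introns had a region in 20 of 27 cases (74.1%, 55.3 to 86.8). The other members had one in 27 of 45 (60%, 45.5 to 73.0), with intervals that overlap. Of all 72 members 65.3% had a region, of genes of like composition 61.2%, and of all autosomal protein-coding genes 29.5%. The difference between host genes and the others was not tested.

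Processed copies of ribosomal protein mRNAs are common in the genome. Of 258 autosomal pseudogenes with a ribosomal protein symbol and -ps, 1 had a region (0.388%), Rps13-ps4, whose region also lay within 1 kb of a start of Taf1c. These were taken by symbol, so they can include copies of ribosomal protein genes outside the 72 and pseudogenes that are not processed. Over all 8924 processed pseudogenes the share was 0.336%. The methods describe no filter on mapping quality. A median of 92.0% of the 32-base words within 1 kb of the principal start occurred once in the genome for members with a region and 88.9% for those without. The part of repeated sequence in the counts was not tested.

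Other genes of the ribosome and of translation were described from 7 lists, to be read beside the 29.5% of all autosomal protein-coding genes with a region and the 61.2% of genes whose GC and CpG content is like that of the members. Of 8 ribosomal genes that the symbols leave out, 4 of them on the X chromosome, only Fau, which encodes a ubiquitin-like fusion of a small subunit protein, had a region (fold 3.98). Of 8 paralogs and retrogene copies 3 had one, Rps27l (5.48), Rpl36al (4.96) and Rpl22l1 (4.05).

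Of 14 further genes known for oligopyrimidine mRNAs 11 had a region (78.6%), led by the initiation factor genes Eif4b (6.93) and Eif3h (6.05) and the poly(A) binding protein gene Pabpc1 (5.20). Of 18 genes of rRNA synthesis and processing 11 had one (61.1%), led by Fbl, the rRNA methyltransferase fibrillarin (7.37). Of 17 genes of subunit assembly and export 8 had one, led by Ltv1 (7.66), and of 8 chaperones of ribosomal proteins 4, led by Ipo5 (5.25). Of 7 genes listed as regulators of oligopyrimidine mRNAs 5 had one, led by the kinase gene Mtor (6.81), while Larp1 had none. That list held LARP family, mTOR complex and S6 kinase genes. The role need not hold for each of them, Larp7 (4.35) included. Together 43 of 80 genes of the lists had a region (53.8%). That was above the 29.5% of all autosomal protein-coding genes and below the 61.2% of autosomal genes of like composition to the members. The 80 genes include some on the X chromosome, none with a region, and the base composition of the list genes was not measured. Neither difference was tested.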

How the data were processed

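Sample titles gave the genotypes. Per the study's methods, the authors trimmed reads with Trim Galore, aligned them to mm10 with bowtie2 and removed duplicates with Picard. They called broad peaks with MACS2 and intersected peaks across replicates. The control was IgG from an earlier study of pachytene-enriched cells of juvenile testes, while the H3.3 cells came from adults. No filter on mapping quality was described. The deposited fold is the ratio of H3.3 to IgG pileup, and the deposited −log10 q belongs to the same peak; which replicate a value comes from is not stated. The labels of the deposited peaks give the IgG as rabbit, while the H3.3 antibody was a mouse monoclonal. Depth and replicate spread are unknown.

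Overlapping rows were merged, and a gene took its highest fold within 1 kb of a start (Python 3.11.15, pandas 2.3.3, numpy 2.4.6, scipy 1.17.1, pyfaidx 0.9.0.4, numba 0.67.0). Scoring was tested on simulated peaks. The principal transcript was the best APPRIS level, then support level, then lowest Ensembl number. That last rule is the second of 2 tried: the longest span was used first and was replaced once its values had been seen, since it put the Rpl18 start away from that of RefSeq.

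The members and lists were chosen with earlier results of these data known. Named members are the 8 highest and 5 lowest in fold, the 5 widest, the 5 farthest from a start, those without a region, and those sharing a region, except that a few are not reported here; other names were chosen after their values were seen, as were the principal start, the GC and CpG comparison, the pseudogenes, the 32-base words, the host genes, the places in the ribosome and the 4 motifs. No test was run, since each genotype is a single list.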

Additional observations from a re-analysis of the deposited data

How the results depend on the processing

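No paired analysis was possible because the replicates of a genotype are merged in the list, which also means that none could be dropped in turn. Over 43 alternatives on 7 results, 9 moved a count by over 1.5 times or a median out of its 95% interval over the members, and 34 stayed within these bounds. Some of the 34 could not have moved. The Arid1a WT count was 0 in the main setting, and its alternatives only narrowed the rule, so it could only stay at 0. Each of the 47 regions already held 2 overlapping rows, so asking for overlapping rows could not lower their count. Asking for a −log10 q of at least 5 left 22 members with a region (all genes 9.56%), with a median fold of 5.79, and 20 genes of the lists. The median distance of the centre, 14.5 bp from the nearest start, was 28.25 bp at a −log10 q of at least 3, 63.5 bp at 5 or more, 105.5 bp over protein-coding transcripts only, 232.5 bp from the most 5′ start and 198 bp from the principal start, so the distance depends on the start and rows used. The count of 47 members was 34 at a −log10 q of at least 3 (all genes 20.8%). It was 40 where a row had to overlap the start base (all genes 22.8%). From the most 5′ start only it was 44 (all genes 27.2%). The pyrimidine start was found in 19 members with at least 7 pyrimidines (all genes 2.58%). Over protein-coding transcripts only it was found in 21 (all genes 5.18%). Where it may begin within 10 bp it was found in 64 (all genes 63.8%, so the excess over all genes is smaller there).

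The rule for the principal start was chosen after seeing the data. Under the rule tried first, ties by longest span, 8 members had another start, the distance was again 198 bp, 43 members were centred downstream (all genes 70.4%), and 72.1% of 43 members against 61.2% of 2545 genes of like composition had a region. CCGGAAG was then in 18 members with a region and 5 without (all genes 11.4%), and GGGCGG in 26 and 9 (all genes 46.2%). TATAAA was in 5 and 3 (all genes 12.7%). AAGATGGC was in 0 and 5 (all genes 3.12%), with Rpl18 in place of Rpl30. The 5 genes that hold AAGATGGC thus depend on the start chosen.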
